A study of Mus musculus with 12 samples.

Results

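The genes described here serve antigen presentation on class II molecules of the major histocompatibility complex, and they were followed in brain microvessels of mice with and without the receptor Notch3. The 8 genes were H2-Aa, H2-Ab1, H2-Eb1, H2-DMa, H2-DMb1, H2-Oa, Cd74 and Ciita, and every probe set that the platform annotation gave to one of them alone was taken. This left 15 probe sets of 7 genes, out of 18193 genes with a probe set of their own. H2-DMb1 had none, because its 2 probe sets were shared with its neighbour H2-DMb2.

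The 12 arrays (Affymetrix Mouse Genome 430 2.0) formed 4 groups of 3: Notch3 knockout cerebral, wild-type littermate cerebral, Notch3 knockout cerebellar and wild-type littermate cerebellar microvascular fragments. Cerebral and cerebellar fragments came from the same 6 mice, 3 of each genotype, all C57BL/6 and 2 months old. The wild-type littermates are called controls below. How the Notch3 allele was made, and which sequence around it the line carries, is not given in the sources used here.

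A class II molecule is a pair of an alpha and a beta chain that displays peptides from the endosomes of an antigen-presenting cell to CD4 T cells. H2-Aa and H2-Ab1 encode the chains of the mouse I-A molecule, and H2-Eb1 encodes the beta chain of I-E. The invariant chain Cd74 guards the groove until cathepsins trim it, the H2-DM pair then exchanges the last fragment for a peptide, and the H2-O pair (H2-Oa with H2-Ob) restrains H2-DM. Ciita is the coactivator that switches on class II promoters through factors bound to their X and Y boxes. In the healthy brain, class II protein is mostly known from macrophages at vessels and borders, and little of it is found on resting microglia.

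H2-Oa, H2-DMa, H2-DMb1, H2-Ab1, H2-Aa and H2-Eb1 lie in this order on chromosome 17, as does Notch3. Between Notch3 and H2-Oa the mouse gene annotation places 63 protein-coding genes, between Notch3 and H2-DMa 65, and between Notch3 and H2-Eb1 75. Cd74 and Ciita lie on other chromosomes. Promoter windows of 300 bases (250 before and 50 after the transcription start, RefSeq, GRCm38.p6) were at hand for 5 of the 8 genes, in 6 windows: 1 each for H2-Aa, H2-Eb1, H2-DMb1 and H2-Oa, and 2 for H2-DMa. Those below are shown because H2-Aa and H2-Eb1 stand for the genes that did not pass a knockout test, H2-DMa passed it, and H2-Oa was lower in cerebellar vessels of knockouts in the fit of 4 group means. Capitals mark TGATTGG, the core of the Y box, and CTAGNAAC, a form of the start of the X box, wherever a search of both strands found them. Close spellings, such as ctggcaac in the H2-Aa window, stay unmarked, so a window without capitals is not shown to lack a box.

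H2-Aa, chr17:34287774-34288073, minus strand: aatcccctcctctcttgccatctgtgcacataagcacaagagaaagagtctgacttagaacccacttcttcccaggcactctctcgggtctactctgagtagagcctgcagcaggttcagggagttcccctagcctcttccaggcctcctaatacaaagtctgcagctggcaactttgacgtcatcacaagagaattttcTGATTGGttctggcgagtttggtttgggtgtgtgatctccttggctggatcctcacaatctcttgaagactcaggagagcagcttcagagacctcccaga
H2-Eb1, chr17:34305617-34305916, plus strand: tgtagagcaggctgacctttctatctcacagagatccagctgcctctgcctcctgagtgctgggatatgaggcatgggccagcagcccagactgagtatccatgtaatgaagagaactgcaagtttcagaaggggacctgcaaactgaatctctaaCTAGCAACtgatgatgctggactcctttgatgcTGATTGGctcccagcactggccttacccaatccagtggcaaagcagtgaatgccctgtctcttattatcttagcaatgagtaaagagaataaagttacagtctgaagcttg
H2-Oa, chr17:34092129-34092428, plus strand: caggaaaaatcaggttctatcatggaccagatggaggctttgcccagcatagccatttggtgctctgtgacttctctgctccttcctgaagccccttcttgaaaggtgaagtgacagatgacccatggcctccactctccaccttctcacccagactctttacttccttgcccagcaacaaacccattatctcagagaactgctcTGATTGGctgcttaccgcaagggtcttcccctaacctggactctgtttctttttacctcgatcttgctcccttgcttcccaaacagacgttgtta
H2-DMa, chr17:34122582-34122881, plus strand: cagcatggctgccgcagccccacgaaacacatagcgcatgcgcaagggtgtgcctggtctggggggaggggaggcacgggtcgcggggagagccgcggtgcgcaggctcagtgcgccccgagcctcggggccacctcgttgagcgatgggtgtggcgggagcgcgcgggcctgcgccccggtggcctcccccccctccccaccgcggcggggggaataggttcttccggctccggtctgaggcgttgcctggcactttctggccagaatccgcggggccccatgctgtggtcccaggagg
H2-DMa, chr17:34125268-34125567, plus strand: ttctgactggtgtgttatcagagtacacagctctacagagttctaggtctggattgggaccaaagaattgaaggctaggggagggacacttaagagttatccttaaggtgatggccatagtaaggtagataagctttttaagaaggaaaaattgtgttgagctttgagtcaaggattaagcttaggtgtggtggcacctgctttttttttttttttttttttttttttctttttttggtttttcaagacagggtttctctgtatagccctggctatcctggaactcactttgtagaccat

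The letters of both motifs were chosen after these sequences had been seen, and a match is a description of the letters only. TGATTGG ended 43 bases before the start of H2-Aa, 54 before that of H2-Eb1 and 38 before that of H2-Oa. In H2-Eb1, CTAGNAAC ended 86 bases before the start, with 25 bases between both motifs. In H2-DMb1, whose window is not printed, CTAGNAAC ended 89 and TGATTGG 56 bases before the start, with 26 bases between them. The motifs did not overlap. Neither H2-DMa window held either motif, and the first of them shared 276 bases with the window of Brd2, which runs in the opposite direction. Whether the H2-DMa transcript read by the probe set 1422527_at uses either of these starts was not tested. Of 32851 mouse promoter windows of this length, 7.82% held TGATTGG, 3.62% held CTAGNAAC and 0.259% held both.

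All values below are deposited log2 GCRMA expression values, and a difference is knockout minus control unless stated. To be tested, a probe set had to lie above 3.27, the median of the whole table, on 3 or more of the 12 arrays. Of the 15 probe sets of these genes, 11 passed this filter, against 50.6% of all probe sets. The 3 probe sets of Ciita did not: they lay between 1.97 and 2.72 on all 12 arrays, so no difference in Ciita could be measured. The fourth was the dimmer H2-DMa probe set (1459872_x_at), which lay between 2.01 and 2.15 on every array. A probe set is called when limma's Benjamini-Hochberg adjusted p over all 22767 tested probe sets was under 0.05, and the number of arrays limits the precision. Array medians ran from 3.24 to 3.302, Notch3 was lower by 8.55 in knockout cerebral and by 8.77 in knockout cerebellar vessels, and 10 endothelial markers held summed levels of 17.34 to 17.54 on all arrays, with 0 of 10 called by limma and 1 of 10 at an unadjusted p under 0.05 in each region.

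**Figure D1:**
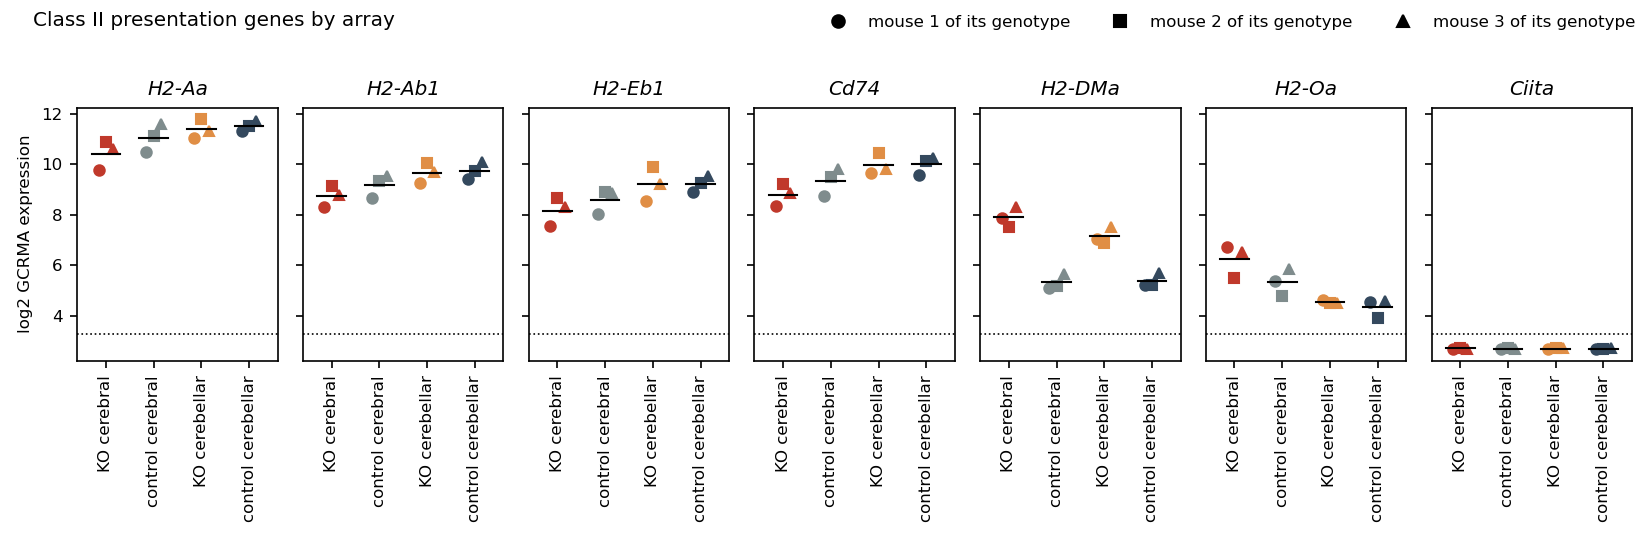
The log2 expression of the brightest probe set of each of 7 genes on the 12 arrays, with 1 symbol per mouse, a bar at the group mean (n = 3) and a dotted line at the median of all values, 3.27. H2-DMa is higher in knockout than in control vessels of both regions, while H2-Aa, H2-Ab1, H2-Eb1 and Cd74 overlap between the genotypes and Ciita lies under the line.

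H2-DMa, the alpha chain of the peptide exchange factor, was the member that changed in the knockout. It was at 7.90, 7.54 and 8.33 in knockout cerebral vessels, against 5.12, 5.20 and 5.66 in control cerebral vessels. In cerebellar vessels it was at 7.03, 6.90 and 7.52 in knockouts and at 5.22, 5.21 and 5.71 in controls. The groups did not overlap in either region: the lowest knockout array stood more than 1 log2 unit above the highest control array. The difference was 2.60 (SE 0.24, 95% interval 2.06 to 3.14, a 6.05-fold rise) in cerebral vessels, with an adjusted p of 0.000194, and 1.77 (SE 0.24, 1.23 to 2.31, 3.41-fold) in cerebellar vessels, with an adjusted p of 0.00261. With the regions of each mouse averaged it was 2.18 (SE 0.22, n = 3 against 3, adjusted p = 0.00788). The second H2-DMa probe set was not above the median on any array, so the rise rests on 1422527_at alone.

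Of the 11 tested probe sets, H2-DMa was the only one called in the knockout comparison: 1 of 11 higher and 0 lower in cerebral vessels, in cerebellar vessels and on the mean per mouse. Over all probe sets, 5.11% were called in cerebral vessels (1.89% higher), 3.49% in cerebellar vessels (0.835% higher) and 3.36% on the mean per mouse (0.843% higher). Groups without overlap were also common in the background, at 23.3%, 20.6% and 26.3% of probe sets in these comparisons. With 1 called probe set of 11, the count does not set the class II genes apart from the rest. The rise of H2-DMa was 0.83 smaller in cerebellar than in cerebral vessels (difference of the differences -0.83, SE 0.34), but this was not called (adjusted p = 1). No class II probe set was called for such a difference by limma, 1 of 11 had an unadjusted p under 0.05, and 0.0264% of all probe sets were called.

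The structural chains and the invariant chain did not pass the test in either region. H2-Aa (1435290_x_at), the alpha chain of I-A, was at 9.77, 10.90 and 10.61 in knockout cerebral vessels, against 10.48, 11.13 and 11.60 in control cerebral vessels. H2-Ab1 (1450648_s_at), its beta chain, was at 8.31, 9.15 and 8.81 in knockout cerebral vessels and at 8.68, 9.34 and 9.55 in control cerebral vessels. In both genes the groups overlapped, with the first mouse of each genotype lowest. H2-Eb1 was at 7.54, 8.66 and 8.30 in knockout cerebral vessels, against 8.05, 8.90 and 8.88 in control cerebral vessels. Cd74 was at 8.35, 9.22 and 8.86 in knockout cerebral vessels and at 8.77, 9.50 and 9.82 in control cerebral vessels. These groups overlapped as well, and the spread between mice was about as large as the difference between genotypes.

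Cerebellar vessels were closer still. H2-Aa (1435290_x_at) was at 11.06, 11.80 and 11.31 in knockout cerebellar vessels, against 11.34, 11.52 and 11.72 in control cerebellar vessels. H2-Ab1 (1450648_s_at) was at 9.26, 10.08 and 9.69 in knockout cerebellar vessels and at 9.42, 9.72 and 10.08 in control cerebellar vessels. Both genes overlapped fully between the genotypes. H2-Eb1 averaged 9.24 ± 0.67 in knockout cerebellar vessels and 9.24 ± 0.33 in control cerebellar vessels (SD, n = 3 each). Cd74 was at 9.66, 10.44 and 9.82 in knockout cerebellar vessels, against 9.59, 10.16 and 10.26 in control cerebellar vessels, again with overlap.

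H2-Aa, H2-Ab1, H2-Eb1 and Cd74 have 9 probe sets between them, a grouping made after their values had been seen. In cerebral vessels all 9 differences were negative, from -0.64 to -0.25 with a median of -0.54, against a median of -0.01 over all tested probe sets. By limma 0 of 9 were called, 0 had an unadjusted p under 0.05, and the adjusted p ran from 0.339 to 0.791. In cerebellar vessels 7 were negative and 2 positive, from -0.35 to 0.03. The Cd74 difference was -0.56 (95% interval -1.28 to 0.17) in cerebral vessels, and in cerebellar vessels it was -0.03 (-0.75 to 0.69), so a loss of more than 1 log2 unit lay inside the cerebral interval and outside the cerebellar one. Probe sets of a gene went the same way in cerebral vessels: the 4 of H2-Aa lay between -0.64 and -0.37 and the 3 of H2-Ab1 between -0.56 and -0.25.

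**Figure D2:**
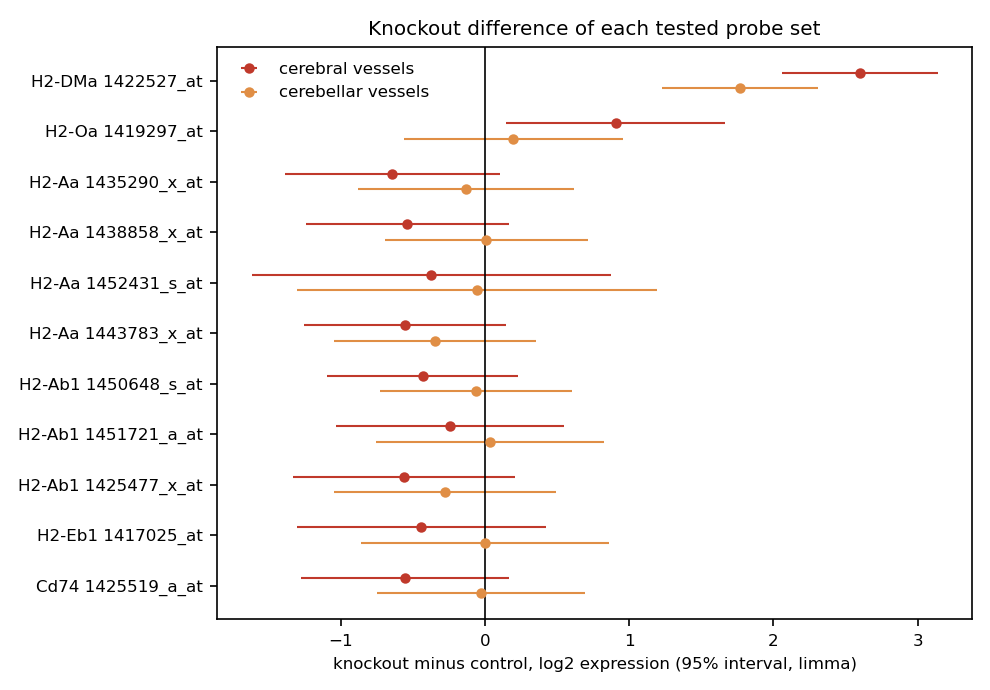
The knockout minus control difference in log2 expression of each tested class II probe set, in cerebral and in cerebellar vessels, with its 95% interval from limma. The interval of H2-DMa starts at 2.06 (cerebral) and 1.23 (cerebellar), and the intervals of the 9 probe sets of H2-Aa, H2-Ab1, H2-Eb1 and Cd74 all hold 0.

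H2-Oa, the alpha chain of the inhibitor H2-O, was at 6.72, 5.50 and 6.52 in knockout cerebral vessels, against 5.39, 4.78 and 5.86 in control cerebral vessels. In cerebellar vessels it was at 4.63, 4.51 and 4.50 in knockouts and at 4.55, 3.92 and 4.59 in controls. The second mouse of each genotype was the lowest of its cerebral group, and the cerebral groups overlapped because the second knockout array lay below the third control array. The difference was 0.91 (SE 0.34) in cerebral vessels, with an adjusted p of 0.178, and 0.20 (SE 0.34) in cerebellar vessels, with an adjusted p of 0.851. The cerebral value was not called, but it was with replicate number as a block (adjusted p = 0.0401), in a design whose numbers do not pair the genotypes, and without knockout cerebral replicate 2 (difference 1.28, adjusted p = 0.0351).

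The H2 genes of chromosome 17 were set against Cd74, since Ciita (chromosome 16) gave no measurable level and Cd74 lies on chromosome 18. The ratio is the H2 value minus the Cd74 value on the same array, averaged over both regions of a mouse, and it shows only whether both changed unequally. For H2-DMa it averaged -1.85 ± 0.66 in knockouts and -4.33 ± 0.30 in controls (SD, n = 3 each), a difference of 2.48 with no overlap (exact permutation p = 0.1, two-sided, the smallest that 3 against 3 mice can give). For H2-Oa the ratio differed by 0.84 with overlap (exact permutation p = 0.3). For the 8 probe sets of H2-Aa, H2-Ab1 and H2-Eb1 it differed by -0.16 to 0.19 with overlap, and the exact permutation p ran from 0.2 to 0.9. With 10 such tests and a floor of 0.1, none can pass after adjustment. In cerebral vessels alone the same smallest exact permutation p of 0.1 was reached by H2-DMa (3.15) and by the H2-Ab1 probe sets 1450648_s_at (0.12) and 1451721_a_at (0.31). On chromosome 17, H2-DMa and the I-A and I-E genes lie within 10 protein-coding genes of each other. Brd2, which lies between H2-Oa and H2-DMa and encodes a bromodomain protein, differed by -0.07 in both regions and was not called (adjusted p = 0.824 in cerebral vessels). Of 4 tested genes that directly neighbour an H2 member, H2-Ob and the dim H2-DMb2 among them, 0 were called by limma in either region, with 2 at an unadjusted p under 0.05 in cerebral and 0 in cerebellar vessels. The Notch3 allele and its chromosomal neighbourhood go together in these mice, so their parts in the H2-DMa difference cannot be told apart.

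The probe sets shared by H2-DMb1 and H2-DMb2 measure the beta chain of H2-DM without telling the copies apart. The first (1418638_at) was at 6.88, 6.29 and 6.58 in knockout cerebral vessels, against 5.82, 5.92 and 5.85 in control cerebral vessels. The second (1449580_s_at) was at 7.64, 6.50 and 7.30 in knockout cerebral vessels and at 6.18, 4.55 and 5.67 in control cerebral vessels. No knockout cerebral array overlapped a control cerebral array in either. They rose by 0.72 (SE 0.14, adjusted p = 0.0138) and by 1.68 (SE 0.40, adjusted p = 0.0416). The second call was lost in 8 of 15 alternative settings, among them the fits without control cerebral replicate 2 (difference 1.22) or 3 (1.78) and without knockout cerebral replicate 1 (1.43) or 3 (1.61). The first was lost in 2 of 15, 1 of them without control cerebral replicate 1 (0.70). In cerebellar vessels the differences were 0.15 and 0.25, neither called. A probe set of H2-DMb2 alone stayed between 3.22 and 3.39 on all arrays. This is close to the median of all values, 3.27, so it sets no bound on a change of H2-DMb2. Which copy the shared rise belongs to was not tested.

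Partners of the class II pathway were read from a list of 14 genes, of which 11 had a tested probe set. In cerebral vessels 4 of 11 rose and 0 fell, against 5.11% called and 1.89% called higher among all probe sets. By limma 6 of 11 had an unadjusted p under 0.05. Marchf1, the ubiquitin ligase that sends class II molecules and Cd86 to degradation, was at 9.40, 8.59 and 9.07 in knockout cerebral vessels, against 7.78, 7.11 and 7.65 in control cerebral vessels, a rise of 1.51 (adjusted p = 0.00352). Cd86, a costimulatory ligand, was at 10.59, 9.79 and 10.28 in knockout cerebral vessels and at 9.20, 8.47 and 9.25 in control cerebral vessels, a rise of 1.25 (adjusted p = 0.0151). Neither gene's groups overlapped. The proteases rose by less: Ctss, the cathepsin that trims the invariant chain in most antigen-presenting cells, by 0.32 (adjusted p = 0.0246) and Ctsl, which does so in thymic epithelium, by 0.19 (adjusted p = 0.0456). The Ctsl value turned to -0.08 (adjusted p = 0.790) when the probe sets of a gene were averaged, and its call was lost without any one of the 6 cerebral arrays. The calls of Ctss and Cd86 were each lost in 4 of 18 alternatives, those without knockout cerebral replicate 1 (0.29 and 1.06) or 3 (0.32 and 1.21) among them, and for Ctss also without control cerebral replicate 2 (0.27). H2-Ob, the partner of H2-Oa, differed by 0.96 without overlap and was not called (adjusted p = 0.0774). It was called with array weights (0.95, adjusted p = 0.0393), with replicate number as a block (adjusted p = 0.0166) and without knockout cerebral replicate 2 (1.27, adjusted p = 0.0140).

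In cerebellar vessels 0 of the 11 partners were called by limma, and 1 of 11, Marchf1, had an unadjusted p under 0.05 (difference 0.52, adjusted p = 0.277). On the mean per mouse Marchf1 was called (1.01, adjusted p = 0.0299) and the other 10 were not. The Marchf1 call was lost in 7 of 16 alternatives, among them those without any one control mouse (0.92 to 1.07) and without knockout mouse 1 (0.86) or 3 (1.04). Of 13 tested genes for regulators of class II promoters, 1 rose in cerebral vessels. This was Ifngr1, the ligand-binding chain of the interferon gamma receptor, at 11.05, 10.66 and 10.72 in knockout cerebral vessels, against 9.998, 10.16 and 10.12 in control cerebral vessels (difference 0.72, adjusted p = 0.00245). Rfx5, a subunit of the X box factor, differed by 0.13 and was not called (adjusted p = 0.572). Ifng itself lay at or under the median of all values on every array. Of 8 genes of class I loading, 7 differences were negative in cerebral vessels and 1 was called: Tap1, a subunit of the peptide transporter, was at 8.75, 8.85 and 8.51 in knockout cerebral vessels, against 9.21, 9.17 and 9.24 in control cerebral vessels (difference -0.50, adjusted p = 0.0268), a call lost in 7 of 18 alternatives, among them the fits that left out any one control cerebral array, or knockout cerebral replicate 1 or 3 (-0.53 to -0.41).

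**Figure D3:**
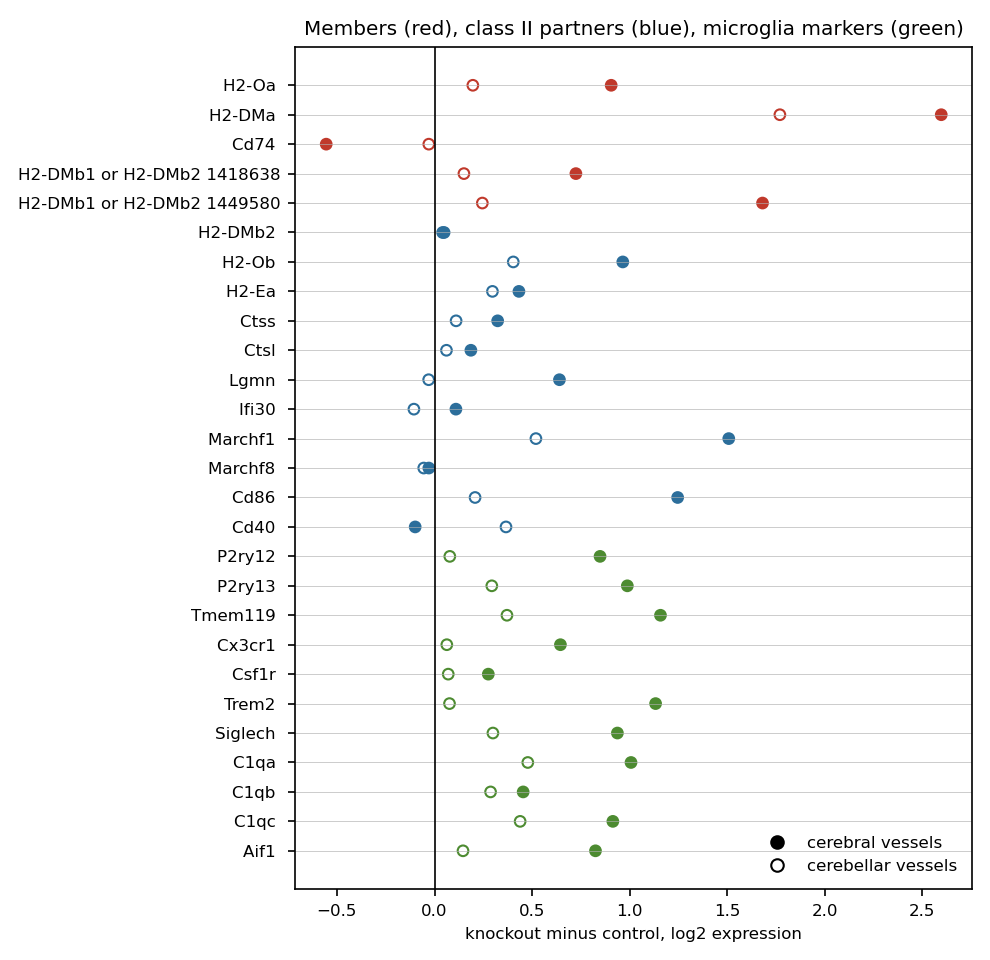
Knockout minus control differences in log2 expression of H2-Oa, H2-DMa, Cd74 and the shared H2-DMb probe sets (red), class II partner genes (blue) and microglia markers (green), with filled points for cerebral and open points for cerebellar vessels. All 11 microglia markers lie above 0 in cerebral vessels, as do 9 of 11 partners, and Cd74 lies below 0.

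Markers of microglia moved with these cerebral values. All 11 tested markers had positive differences in cerebral vessels, with a median of 0.91, and 11 of 11 had an unadjusted p under 0.05 by limma. Of these 5 were called higher, against 1.89% of all probe sets. Tmem119 (1.16) and Trem2 (1.13) were among the 5, although each of the 5 calls was lost in 6 to 9 of 18 alternatives. On the mean per mouse 0 of the 11 markers were called by limma and 9 had an unadjusted p under 0.05. Their summed level was 16.65 to 17.14 in knockout cerebral vessels, against 15.98 to 16.47 in control cerebral vessels. In cerebellar vessels it was 16.06 to 16.14 in knockouts and 15.74 to 16.05 in controls, the median difference was 0.29, 0 of 11 were called by limma and 1 had an unadjusted p under 0.05. None of the 11 lay at or under the median of all values on every array. H2-DMa differed by 2.60 in cerebral and by 1.77 in cerebellar vessels, and the median difference of these markers was 0.91 and 0.29. The part of microglia in the differences of H2-DMa, the H2-DMb probe sets and the partner genes was not tested. In bulk RNA more cells of a type and more RNA per cell cannot be told apart.

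Other cells that can carry class II molecules were read from their markers. Those of perivascular and border macrophages had summed levels of 11.31 to 11.62 in knockout cerebral vessels, against 11.48 to 11.67 in control cerebral vessels. Stab1, the brightest of them, weighs most in this sum. By limma 0 of 9 were called in either region, with 2 at an unadjusted p under 0.05 in cerebral and 0 in cerebellar vessels. The cerebral differences ran from -1.15 to 0.12, with 5 negative and 4 positive. The most negative were Cbr2, which averaged 6.09 in knockout and 7.24 in control cerebral vessels, and F13a1 (5.94 and 6.58). Of 8 dendritic cell markers with a probe set, Itgax, Flt3, Xcr1, Ccr7 and Cd209a lay at or under the median of all values on every array. Among the 3 tested, Fscn1, an actin bundler that other cells also use, rose by 0.90 in cerebral vessels (adjusted p = 0.0325). Zbtb46 averaged 9.8 in knockout and 9.77 in control cerebral vessels, and Batf3 averaged 6.41 and 6.45. Neither was called. Of 5 B cell markers Cd79a, Pax5 and Blk lay at or under that median on every array. Cd79b, a chain of the B cell receptor, was at 6.23, 4.25 and 5.95 in knockout cerebral vessels, against 4.11, 4.15 and 4.82 in control cerebral vessels, a difference of 1.12 with overlap that was not called (adjusted p = 0.295). Ms4a1 differed by 0.14 and was not called either (adjusted p = 0.866). Of 5 T cell markers Cd3e, Cd3d and Cd3g lay at or under the median of all values on every array. The part of these cells in the class II values was not tested. Mural markers fell in 6 of 9 cases in cerebral and 5 of 9 in cerebellar vessels, Notch3 among them.

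Between the regions of a mouse, most probe sets of the I-A and I-E chains and that of Cd74 had higher values in cerebellar than in cerebral vessels, and how many passed the test depended on the fit. Cd74 was at 9.66, 10.44 and 9.82 in knockout cerebellar vessels, against 8.35, 9.22 and 8.86 in the cerebral vessels of these mice. In controls it was at 9.59, 10.16 and 10.26 in cerebellar and at 8.77, 9.50 and 9.82 in cerebral vessels. Every mouse was higher in its cerebellar vessels, by 0.44 to 1.32. The same held in 6 of 6 mice for H2-Eb1 and for each of the 3 H2-Ab1 probe sets, and for 3 of 4 H2-Aa probe sets, while the fourth (1438858_x_at) was higher in 5 of 6.

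The fit of 4 group means leaves out that both regions came from the same mice, and there 0 of the 9 probe sets were called by limma in either genotype. In knockouts 6 of 9 had an unadjusted p under 0.05, with differences from 0.73 to 1.17. In controls 0 of 9 did, with differences from 0.22 to 0.78. With the mouse as a replicate block, 7 of 11 class II probe sets were higher and 2 lower in cerebellar vessels of knockouts, against 5.72% higher and 5.03% lower among all probe sets. In controls 3 of 11 were higher and 0 lower, against 3.4% and 1.47%. With the mouse as a random block instead, which estimates the correlation of its regions, 4 of 11 were higher and 2 lower in knockouts, and 0 of 11 passed in controls. Of all 22767 probe sets the random block called 2629 in knockouts (1319 higher) and 1086 in controls (746 higher). With the replicate block Cd74 was higher by 1.17 in knockouts (SE 0.10, adjusted p = 0.00215) and by 0.64 in controls (SE 0.10, adjusted p = 0.0195). With the random block its adjusted p was 0.0127 in knockouts and 0.168 in controls. H2-Eb1 was higher with the replicate block by 1.07 in knockouts (adjusted p = 0.00295) and by 0.63 in controls (adjusted p = 0.0256). H2-Ab1 (1450648_s_at) was higher with it by 0.92 in knockouts (adjusted p = 0.00214) and by 0.55 in controls (adjusted p = 0.0135). With the random block both passed in knockouts (adjusted p = 0.0376 and 0.0238) and neither did in controls (adjusted p = 0.248 and 0.189). H2-Aa (1435290_x_at) passed with the replicate block in knockouts (0.97, adjusted p = 0.0137) and not in controls (0.46, adjusted p = 0.175). The same held with the random block (adjusted p = 0.0378 and 0.357). The larger differences in knockouts are not shown to differ from those in controls, since no test of that difference was passed.

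H2-Oa went the other way. It was at 4.63, 4.51 and 4.50 in knockout cerebellar vessels, against 6.72, 5.50 and 6.52 in knockout cerebral vessels, and it was lower in the cerebellar vessels of 6 of 6 mice. In knockouts it was lower by 1.70 without overlap (difference -1.70, SE 0.34, adjusted p = 0.0212), the 1 of 11 class II probe sets called in this fit, against 5.03% called and 2.4% called lower among all probe sets. Groups without overlap made up 23.4% of all probe sets here. In this fit the call is not firm: the adjusted p was 0.054 to 0.084 without any one of 5 knockout arrays. With the mouse as a replicate block H2-Oa was called in knockouts (adjusted p = 0.00593), and with the random block too (adjusted p = 0.0040). In controls the difference was -0.99 (SE 0.34), also without overlap, and not called (adjusted p = 0.220). Neither the replicate block nor the random block called it in controls (adjusted p = 0.0558 and 0.0717). In the fit of 4 group means 1.49% of probe sets were called in controls, and 19.1% did not overlap. H2-DMa was lower by 0.77 in knockout cerebellar vessels, in 3 of 3 mice, called with the block (adjusted p = 0.00214) and not without it (adjusted p = 0.107). In controls it differed by 0.06 and was not called.

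Among the partners, the block called 5 of 11 lower and 0 higher in knockout cerebellar vessels: Cd86 (-1.66), Marchf1 (-1.37), Lgmn (-0.96), H2-Ob (-0.81) and Ctss (-0.24). In controls 1 of 11 was called, Cd86 (-0.62, adjusted p = 0.0469). Microglia markers ran the same way, with 11 of 11 lower in knockout and 4 of 11 lower in control cerebellar vessels under the block. The summed microglia level was 16.06 to 16.14 in knockout cerebellar vessels, against 16.65 to 17.14 in knockout cerebral vessels. The regional differences of H2-Aa, H2-Ab1, H2-Eb1 and Cd74 had the sign opposite to those of the microglia markers, although the random block called 0 of 11 class II probe sets in controls. Mural markers had the same sign as these 4 genes. Under the replicate block 4 of 9 were higher and 0 lower in each genotype, against 5.72% (knockouts) and 3.4% (controls) higher among all probe sets. Fscn1 was lower in cerebellar vessels of knockouts (-0.93) and controls (-0.68). Border macrophage markers had 0 of 9 called between the regions of either genotype by limma with the block, where 4 in knockouts and 2 in controls had an unadjusted p under 0.05. The part of these cells in the regional values was not tested.

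**Figure D4:**
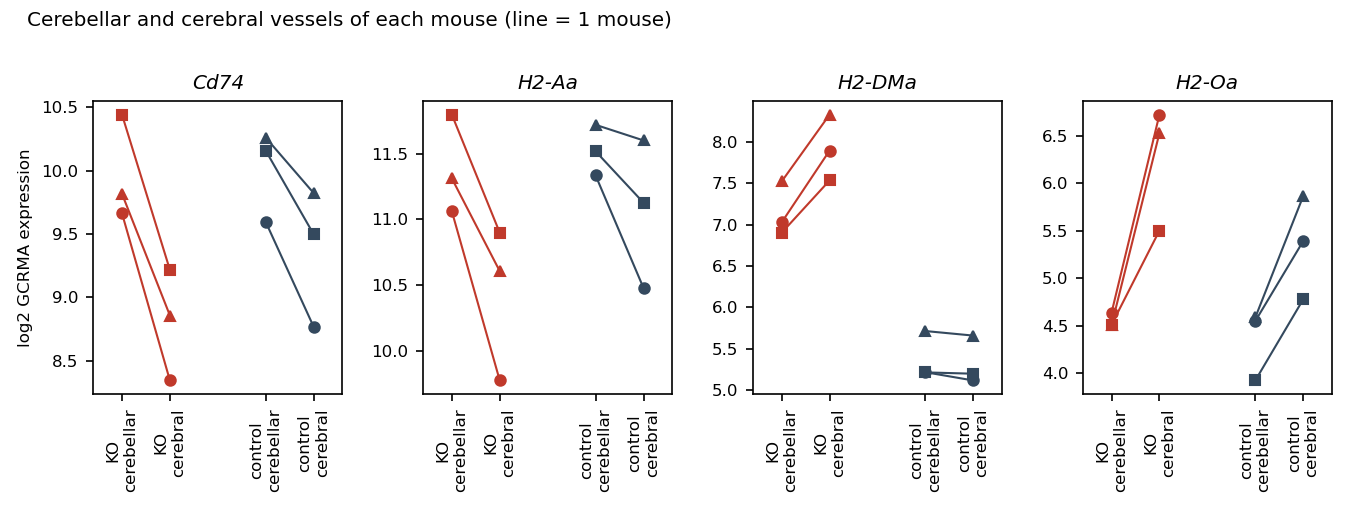
The log2 expression of Cd74, H2-Aa, H2-DMa and H2-Oa in cerebellar and cerebral vessels, with 1 line per mouse (knockouts red, controls blue) and an axis of its own for each gene. Every line of Cd74 and of H2-Aa is higher on the cerebellar side, every line of H2-Oa is lower there, and the H2-DMa lines of knockouts and controls do not meet.

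Mice of a genotype also differed from each other, and did so alike in H2-Aa, H2-Ab1, H2-Eb1 and Cd74. The first mouse was the lowest of its group for 9 of 9 probe sets in knockout cerebral, 9 of 9 in control cerebral, 9 of 9 in knockout cerebellar and 8 of 9 in control cerebellar vessels. The second knockout mouse was the highest for 8 of 9 in cerebral and 9 of 9 in cerebellar vessels, and the third control mouse for 7 of 9 and 8 of 9. These 2 mice are the ones whose arrays lacked Xist, a transcript of female cells, and the part of sex in this order was not tested. The probe sets of these 4 genes are not independent, since they share arrays and mice.

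Across the 12 arrays the genes nearest to Cd74 in pattern were other members. Pearson's r with Cd74 was 0.985 for H2-Ab1 (1450648_s_at), 0.967 for H2-Aa (1435290_x_at) and 0.962 for H2-Eb1, which ranked 1 to 3 among all tested probe sets. The nearest genes that are no members were Mrps6 (0.954), Rnd2 (0.953), Ptpn13 (0.946), Phyh (0.945) and Dzank1 (0.942). H2-Oa stood at the far end, with r = -0.798, and H2-DMa was at -0.363. The genes nearest to H2-DMa were Hebp1 (0.979), Gfer (0.977), Ang (0.962), Znf41-ps (0.961) and Fuca2 (0.957), of which Gfer lies on chromosome 17, and H2-Oa was its nearest member (0.533). These correlations are descriptions over arrays that share mice and fall into 4 groups, so a difference between genotypes or regions alone gives a high value.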

How the data were processed

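Total RNA of cerebral and cerebellar microvascular fragments was amplified, labelled and hybridised to 12 arrays, 1 region of 1 mouse each, per the labels' protocols. The authors deposited log2 expression values for each probe set; GCRMA 2.32.0 made them, per the submitters' processing notes, and they were used unscaled. Of 45101 probe sets in all, 34958 named 1 gene, 932 several and 9211 none, of which 64 were control probe sets and left out. A probe set naming several genes was not used, except those shared by H2-DMb1 and H2-DMb2. No column was left unused.

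limma 3.58.1 in R 4.3.3 (lmFit, eBayes, two-sided) was fitted to 22767 probe sets as 4 group means over 12 arrays, or to per-mouse averages over the regions. Equal replicate numbers within a genotype were read as the same mouse, although no label says so. The regions of a mouse deviated together (r from 0.404 to 0.674 for same-numbered arrays, higher than with any other number), so the region comparisons are also given with the mouse as a replicate block. Across genotypes the numbers do not pair the mice (r from -0.139 to 0.203). The script was tested on simulated data. Ratios to Cd74 had exact permutation tests.

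The text names every probe set of the 8 genes and, from lists of partners, regulators, class I genes, neighbours and cell type markers (brightest tested probe set per gene), the called ones and examples; genes like Cd74 or H2-DMa in pattern were taken by Pearson's r, 5 each. The genes and lists were chosen with earlier results of these data known, so their counts are not independent support. Alternatives covered filters, probe sets, array weights, variance model, arrays in the fit, blocks, an Xist covariate and leaving out each array or mouse.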

Additional observations from a re-analysis of the deposited data

How the results depend on the processing

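The H2-DMa rise kept its direction and its call in every alternative that tested it, 17 in cerebral vessels (2.39 to 2.79), 17 in cerebellar vessels (1.58 to 1.94) and 15 on per-mouse averages (1.99 to 2.35). A filter at the 75th percentile of all values removed this probe set and left 5 class II probe sets, of which 0 were called in any of these 3 comparisons. The count of class II probe sets called between genotypes in cerebral vessels was 2 with replicate number as a block, which does not pair the genotypes, since H2-Oa was added. Leaving out 1 array gave 1 to 2, with 2 without knockout cerebral replicate 2. Between regions of knockouts, where 1 was called, it was 9 with the mouse as a replicate block, 6 (4 higher) with it as a random block, 4 with an Xist covariate, 0 without the filter, 0 with only the arrays compared, and 0 to 2 without 1 array. It was 0 without knockout cerebral replicate 1 or 3 or any 1 of the knockout cerebellar replicates, and 2 without knockout cerebral replicate 2. In controls, where 0 were called, the replicate block gave 3 and the random block 0. Of all 22767 probe sets, the replicate block called 2447 in knockouts and 1107 in controls, and the random block 2629 and 1086. For the change of the knockout effect with region, 0 were called in each of 23 alternatives. The Ctsl difference in cerebral vessels turned to -0.082 with averaged probe sets, and the H2-Eb1 ratio to Cd74 ran from -0.001, without knockout replicate 2, to 0.202 without 1 mouse; the cause was not tested. Over all probe sets, calls ranged from 460 to 2102 in cerebral vessels (1164 as reported), 453 to 1142 in cerebellar vessels (794), 349 to 1070 per mouse (765), 0 to 21 for the difference of effects (6), 348 to 2629 between regions of knockouts (1145) and 96 to 1107 in controls (340). Ciita could not replace Cd74 in the ratio because no Ciita probe set passed the filter, and Cd74 had 1 probe set. Fits to the compared arrays alone were not run for per-mouse averages or the difference of effects, nor was the random block for the averages. Dim probe sets such as those of Ciita, the second of H2-DMa and that of H2-DMb2 alone set no bound on a change.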
